A study of Mus musculus with 54 samples.

Results

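The genes described here were 6 aldo-keto reductases, Akr1b7, Akr1b8, Akr1b3, Akr1c14, Akr1c18 and Akr1a1, together with the steroid 5-alpha reductase Srd5a1. They were 7 of the 25149 genes in the deposited tables, found by symbol, and all 7 were present. They were chosen by symbol, with no threshold, after their levels and fold changes between these same groups were known. Their differences between groups are therefore a description: the false discovery rates (FDR) printed for them place them within a fit over all genes and support nothing further.

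The libraries were bulk Smart-Seq2 RNA-seq of individual follicle sides, each microdissected from a cultured antral follicle. Secondary follicles had been isolated from CD-1 female mice aged 14 to 16 days. Follicles were grown for 8 days in alginate to the antral stage and then kept for 12 h in maturation medium with or without human chorionic gonadotropin (hCG), which binds the luteinizing hormone receptor and induces ovulation. Both media held epidermal growth factor, follicle-stimulating hormone and serum, so the groups without hCG were not unstimulated. There were 15 putative unruptured and 14 putative ruptured sides without hCG, and 12 unruptured and 13 ruptured sides post-hCG. "Putative" means that the side without hCG was assigned from the swelling of the antral cavity and image analysis, since no rupture had occurred. All groups shared the culture, the maturation medium apart from hCG, and the removal of the cumulus-oocyte complex. The tissue label reads cumulus-oocyte complex, but 8 oocyte markers summed to a median of at most 0.13 TPM (transcript abundance scaled for length and for the library) in each group, whereas 9 granulosa markers summed to medians of 1288 to 13074 TPM. Single libraries reached oocyte sums of 153 TPM (putative unruptured) and 23.9 TPM (putative ruptured). The 6 cumulus markers summed to group medians of 33.5 to 55.8 TPM. The granulosa list does not separate mural from cumulus granulosa cells, so some cumulus RNA may remain. Neither the labels nor the methods say how many mice gave the follicles, so the spread between libraries is the spread between follicle sides. Each follicle was cut into a ruptured and an unruptured side, so both side groups of a medium may hold sides of the same follicles. No label links such sides, and they were fitted as independent libraries. This limits every SE and FDR between sides.

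Aldo-keto reductases are cytosolic enzymes that use NADPH to reduce aldehydes and ketones, and several of them act on steroids or prostaglandins. In the ovary, Akr1c18 (20-alpha-hydroxysteroid dehydrogenase) inactivates progesterone and is known for its part in regression of the corpus luteum, whereas Srd5a1 and Akr1c14 act in sequence, the former reducing the double bond of progesterone or testosterone and the latter reducing the 3-keto group of the product. Akr1b7 reduces isocaproaldehyde, the side product of cholesterol side-chain cleavage, and can form prostaglandin F2-alpha, while Akr1b3 (aldose reductase) opens the polyol pathway and Akr1a1 (aldehyde reductase) has a broad range of aldehyde substrates.

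The promoters of the pairs of clustered genes that differed most between groups are shown first, as reference sequence, because the genes of each pair lie in the same gene cluster. Akr1b3, Akr1b8, Akr1b10 and Akr1b7 lay within 120.7 kb of chromosome 6, with 15.4 kb between Akr1b10 and Akr1b7. Akr1c14 and Akr1c18 lay 41.9 kb apart on chromosome 13, on opposite strands. The genes spanned chr6:34412334-34423142 (Akr1b7, plus strand), chr6:34354119-34368463 (Akr1b8, plus), chr6:34302434-34317478 (Akr1b3, minus), chr13:4049011-4090688 (Akr1c14, plus), chr13:4132615-4150654 (Akr1c18, minus), chr4:116636510-116651680 (Akr1a1, minus) and chr13:69573449-69611442 (Srd5a1, minus) in the GENCODE annotation of GRCm38. RefSeq promoters, 300 bases from 250 before to 50 after the gene start, were matched for 6 of the 7 genes. Those printed were chr6:34412112-34412411 (plus) for Akr1b7, chr6:34353896-34354195 (plus) for Akr1b8, chr13:4059341-4059640 (plus) for Akr1c14 and chr13:4150597-4150896 (minus) for Akr1c18, in GRCm38.p6, each written 5′ to 3′ on the gene's own strand. The starts are those of RefSeq, which for Akr1c14 lies downstream of the GENCODE start, inside the gene span given above. Capitals mark matches, on either strand, to AAGGTCA (bound by NR5A receptors such as steroidogenic factor 1) or to TTNNGNAA (the C/EBP core).
Akr1b7: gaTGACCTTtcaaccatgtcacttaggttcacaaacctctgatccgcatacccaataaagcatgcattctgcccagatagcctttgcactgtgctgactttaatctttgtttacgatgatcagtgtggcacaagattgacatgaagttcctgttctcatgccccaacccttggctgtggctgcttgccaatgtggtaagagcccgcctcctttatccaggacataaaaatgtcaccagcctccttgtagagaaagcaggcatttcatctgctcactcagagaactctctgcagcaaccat
Akr1b8: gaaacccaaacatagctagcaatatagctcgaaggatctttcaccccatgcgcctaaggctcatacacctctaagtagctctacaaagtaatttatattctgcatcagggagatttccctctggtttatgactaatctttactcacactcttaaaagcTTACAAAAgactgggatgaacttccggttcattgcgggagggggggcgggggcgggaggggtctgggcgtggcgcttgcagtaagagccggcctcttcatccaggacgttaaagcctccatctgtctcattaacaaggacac
Akr1c14: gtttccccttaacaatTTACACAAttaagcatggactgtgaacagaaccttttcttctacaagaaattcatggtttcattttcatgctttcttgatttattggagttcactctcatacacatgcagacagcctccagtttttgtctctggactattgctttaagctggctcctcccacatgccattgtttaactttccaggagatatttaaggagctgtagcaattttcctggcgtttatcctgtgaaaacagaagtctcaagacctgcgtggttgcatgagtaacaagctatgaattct
Akr1c18: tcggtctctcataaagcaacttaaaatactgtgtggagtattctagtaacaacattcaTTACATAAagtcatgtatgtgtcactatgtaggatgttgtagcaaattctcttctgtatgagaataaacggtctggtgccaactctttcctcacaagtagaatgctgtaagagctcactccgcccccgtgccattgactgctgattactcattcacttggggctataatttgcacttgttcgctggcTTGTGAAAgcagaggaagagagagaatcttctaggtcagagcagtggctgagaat
AAGGTCA was found on the opposite strand at -248 to -242 of Akr1b7, where +1 is the first base of the gene in RefSeq, and in no other of the 6 matched promoters. The neighbouring Akr1b10, outside the 7 genes, also had it on the opposite strand, at -215 to -209. This motif occurred in 4.72% of all 32851 promoters of the same length. TTNNGNAA was in 5 of the 6 promoters, including 1 match in Akr1b8, 1 in Akr1c14 and 2 in Akr1c18, and in 40.7% of all promoters. The cyclic AMP response half-site TGACG (20.8% of all promoters) and the AP-1 motif TGANTCA (7.81%) were in none of the 6 windows, on either strand. No matches of different motifs overlapped in the 6 windows. A match is a string of letters only, and binding was not measured.

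The levels are given first, in TPM, which is scaled for transcript length and so can be compared between genes. Between libraries TPM is relative to the rest of the library and lacks the scaling factors of the edgeR fits. Directions can differ for that reason. Between sides post-hCG, 8.5% of the genes called by limma on log2(TPM + 1) were higher on the ruptured side, against 47% in edgeR. Akr1a1 had the highest median of the 7 genes in each group, and Akr1c14 and Akr1b7 had the widest ranges. Srd5a1 was low in all groups, with medians of 2.58 to 7.77 TPM. Medians below those of Srd5a1 in the same groups were found for Akr1b7 on putative unruptured (2.3) and putative ruptured sides (0.615). The same held for Akr1c14 on unruptured (1.69) and ruptured sides post-hCG (3.2), and for Akr1b7 on ruptured sides post-hCG (3.88).

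**Figure D1:**
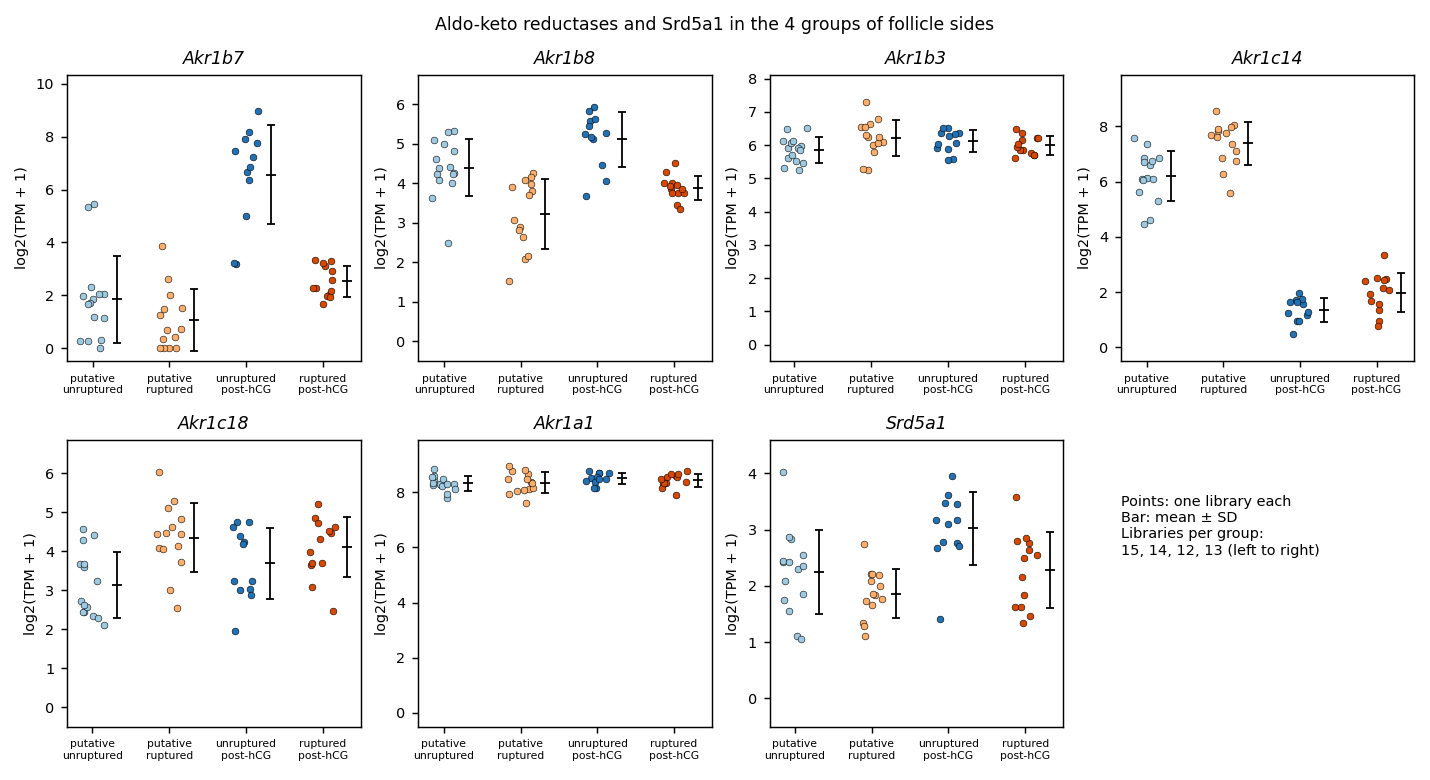
Level of each gene as log2(TPM + 1) in the 54 libraries, 1 point per library, with the mean and SD of each group as a bar to the right (15, 14, 12 and 13 libraries from left to right). Akr1c14 separates the libraries without hCG from those post-hCG, and Akr1b7 is highest in the unruptured post-hCG group, where it ranges from 8.15 to 497 TPM.

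Akr1c14, which reduces 3-ketosteroids, was high without hCG and near the bottom of its range post-hCG, on both sides. In TPM, the lowest, median and highest libraries were at 21.1, 68.9 and 192 for putative unruptured sides and at 47.4, 200.3 and 381 for putative ruptured sides. The corresponding values were 0.4, 1.69 and 2.96 for unruptured and 0.73, 3.2 and 9.18 for ruptured sides post-hCG. No library post-hCG reached the lowest library without hCG of its own side, so the groups did not overlap on either side. The estimated read counts behind these levels had medians of 697 and 1526 without hCG, and of 12 and 18 post-hCG, and at least 1 read was assigned in all 54 libraries. In the edgeR fit, hCG changed Akr1c14 by -5.89 ± 0.36 (log2 fold change ± SE) on the unruptured side and by -6.15 ± 0.32 on the ruptured side, or 59.2-fold and 71.2-fold lower, with FDR of 6.82e-15 and 2.65e-17.

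Akr1c14 also differed between sides. Without hCG it was higher on the putative ruptured side, by 1.17 ± 0.30 on the log2 scale (FDR = 0.00511, edgeR), with 13 of 14 putative ruptured libraries above the putative unruptured median and 8 of 14 above the highest putative unruptured library. Post-hCG the difference between sides was 0.88 ± 0.26 (FDR = 0.0152), with 10 of 13 ruptured libraries above the unruptured median. At these low counts the call was lost when all 4 groups were fitted together (FDR = 0.0926) and with limma on log2(TPM + 0.1) (FDR = 0.0625). Over the libraries without hCG, Akr1c14 moved with the summed granulosa markers. Pearson's r between log2(TPM + 1) of both was 0.838 over the 15 putative unruptured and 0.785 over the 14 putative ruptured libraries. It was 0.213 and 0.299 over the unruptured and ruptured libraries post-hCG. In each group the sum was mostly Inha and Gja1 (medians of 9027 and 3603 TPM on putative ruptured sides). The r values thus describe these genes more than the list as a whole. The summed granulosa markers had medians of 4057 and 1553 TPM without and with hCG on the unruptured side, where 5 of 8 tested were lower and 3 higher, and of 13074 and 1288 TPM on the ruptured side, where 5 of 8 were lower and 1 higher. Their part in the hCG difference of Akr1c14 was not tested. The r values are descriptions, and the points differ in depth.

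Akr1b7, the isocaproaldehyde reductase, was highest on the unruptured side post-hCG. The lowest, median and highest TPM were 0, 2.3 and 43.3 on putative unruptured sides, and 0, 0.615 and 13.6 on putative ruptured sides. Post-hCG they were 8.15, 132.1 and 497 on unruptured sides, and 2.19, 3.88 and 9.08 on ruptured sides. The unruptured and ruptured groups post-hCG overlapped slightly: 10 of 13 ruptured libraries were below the lowest unruptured library. Putative unruptured libraries 5 and 9, at 39.8 and 43.3 TPM, held 77.6% of the group's Akr1b7 reads, and the other 13 were at or below 3.98 TPM. At least 1 read was assigned in 14 of 15 putative unruptured, 10 of 14 putative ruptured, 12 of 12 unruptured post-hCG and 13 of 13 ruptured post-hCG libraries, and a count of 0 allows up to 3 reads, or 1.06 to 2 CPM (counts scaled to the library total, without length) depending on the library.

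Post-hCG, Akr1b7 was 24.9-fold lower on the ruptured side (log2 fold change -4.64 ± 0.46, FDR = 2.14e-08, edgeR), the fifth-largest absolute fold change among the 8585 genes tested. On the unruptured side it was 22.9-fold higher post-hCG than without hCG (4.52 ± 0.66, FDR = 7.39e-07), and all 12 libraries were above the putative unruptured median. On the ruptured side it was 2.94-fold higher (1.55 ± 0.44, FDR = 0.00324), again with all 13 libraries above the median without hCG. This last call was lost when all 4 groups were fitted together (FDR = 0.0590), and the gene was not tested there with a minimum mean of 20 counts or without putative ruptured library 1 or 4. Without hCG the gene did not pass the count filter, and in the fit without a filter the sides differed by -1.70 ± 0.68 (FDR = 0.128). That difference rested on the putative unruptured libraries 5 and 9: without them it was 0.17 (FDR = 0.898), and the difference on the unruptured side between hCG and no hCG was then 6.39 ± 0.56.

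The interaction of side and hCG compares the hCG difference on the ruptured side with that on the unruptured side. For Akr1b7 it was -2.96 ± 0.95 (FDR = 0.0380, edgeR), a smaller hCG difference on the ruptured side. The FDR was 9.49e-05 without putative unruptured libraries 5 and 9, and it was above the threshold without unruptured post-hCG library 1 (0.0613), without a count filter (0.0565), with limma on log2(TPM + 0.1) (0.0815), and without putative unruptured library 14 and putative ruptured library 1 (0.0724). Of the other 6 genes, 0 had an interaction FDR below 0.05 in edgeR, DESeq2 or limma or an unadjusted p below 0.05 in edgeR, and the lowest FDR was 0.297, for Akr1c18 (-0.80 ± 0.45). Over all 10013 genes tested, 8.91% were called for the interaction, 4.25% with a value above 0 and 4.65% with a value below 0, against 1 of the 7 genes. The sign is that of a difference in log2 fold change. A value below 0 can thus be a smaller increase or a larger decrease with hCG on the ruptured side. Scaled by library totals, the share of called genes with an interaction above 0 moved from 47.8% to 25.8%.

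Akr1b8, in the same cluster as Akr1b7 and a reductase of lipid aldehydes, had the same order of sides in a narrower range. Its lowest, median and highest TPM were 4.61, 19.9 and 39.3 on putative unruptured and 1.91, 9.7 and 18.2 on putative ruptured sides. Post-hCG they were 11.8, 37.3 and 59.6 on unruptured and 9.21, 13.4 and 21.7 on ruptured sides. All 14 putative ruptured libraries and all 13 ruptured libraries post-hCG were below the median of the unruptured side in the same medium, although the ranges overlapped. The ruptured side was lower by 1.11 log2 units in each medium, with log2 fold changes of -1.11 ± 0.25 (FDR = 0.00230) without hCG and -1.11 ± 0.20 (FDR = 8.81e-05) post-hCG in edgeR. hCG was accompanied by higher values of similar size on both sides, 0.70 ± 0.22 (FDR = 0.00849) on the unruptured and 0.70 ± 0.23 (FDR = 0.0109) on the ruptured side. With library totals alone as the scaling, these hCG differences were 0.47 and 0.34 and were not called (FDR = 0.0736 and 0.208).

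**Figure D2:**
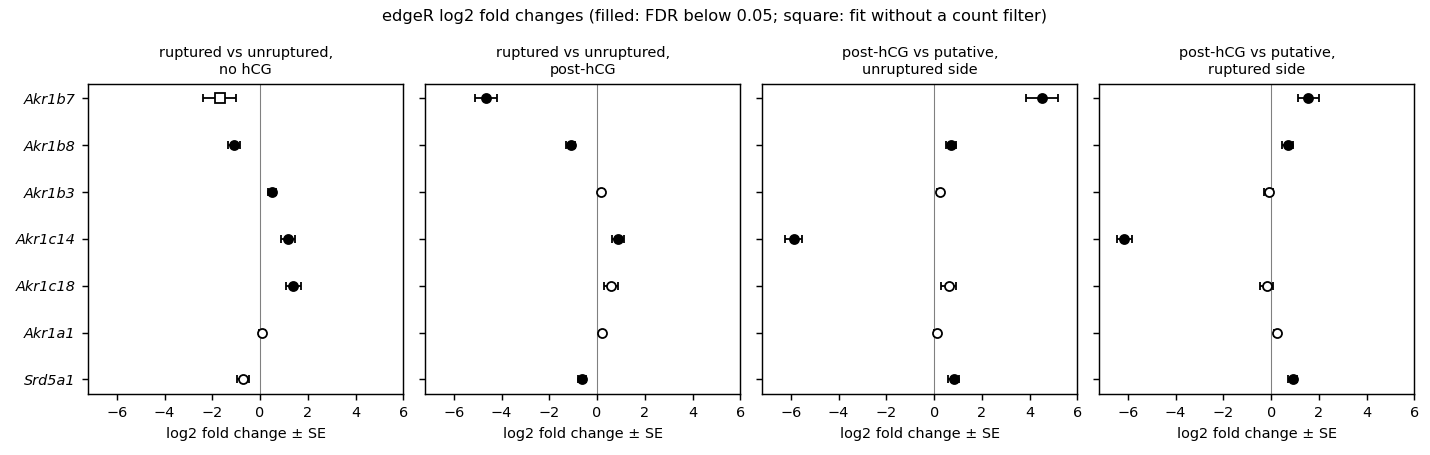
Log2 fold change with its SE for each gene in the 4 comparisons of groups, from edgeR, where filled points have an FDR below 0.05 and the square is the fit without a count filter. Positive values mean higher on the ruptured side (left panels) or higher post-hCG (right panels). Akr1c14 lies near -6 in both hCG comparisons, and Akr1b7 lies at -4.64 between sides post-hCG and at 4.52 for hCG on the unruptured side.

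Srd5a1, the 5-alpha reductase, had low levels in all groups. Its lowest, median and highest TPM were 1.09, 4.11 and 15.3 on putative unruptured sides and 1.15, 2.58 and 5.66 on putative ruptured sides. Post-hCG they were 1.67, 7.77 and 14.5 on unruptured sides and 1.52, 4.63 and 11 on ruptured sides. The groups overlapped in every comparison, and the median estimated counts were 9 to 24 reads. Of the 31-base words in its transcripts, 15.7% also occurred in transcripts of Gm17108, so reads from those stretches cannot be told apart. Between sides, Srd5a1 was lower on the ruptured side post-hCG (-0.62 ± 0.16, FDR = 0.00509, edgeR), with 12 of 13 ruptured libraries below the unruptured median. Without hCG the difference was -0.71 ± 0.26 (FDR = 0.0523), just outside the threshold, and it was called when all 4 groups were fitted together (FDR = 0.0171) and without putative unruptured libraries 5 and 9 (0.0484). Post-hCG values were higher on the unruptured side by 0.81 ± 0.22 (FDR = 0.00278) and on the ruptured side by 0.90 ± 0.19 (FDR = 1.45e-04), the latter not called by limma on TPM (FDR = 0.0891 and 0.106). The ratio of CPM to TPM, which moves with the transcript length estimated for a library, ranged from 0.515 to 2.15 times its median for Srd5a1 over the 38 libraries with at least 10 reads, against 0.824 to 1.24 for Akr1a1 over all 54, and its part in the difference between tools was not tested.

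Akr1c18, which inactivates progesterone, was lowest on putative unruptured sides. Its lowest, median and highest TPM were 3.28, 5.61 and 22.9 there and 4.88, 20.8 and 64.5 on putative ruptured sides. Post-hCG they were 2.85, 12.9 and 26.1 on unruptured sides and 4.53, 18.9 and 36.3 on ruptured sides. Although all 4 ranges overlapped, 13 of 14 putative ruptured libraries were above the putative unruptured median. Between sides without hCG the difference was 1.40 ± 0.32 (FDR = 0.00195, edgeR), or 2.63-fold. It was 0.59 ± 0.29 between sides post-hCG (FDR = 0.151), and the hCG differences were 0.60 ± 0.32 on the unruptured side (FDR = 0.112) and -0.20 ± 0.29 on the ruptured side (FDR = 0.583), none of them called. Akr1c14, in the same cluster, was called lower post-hCG on both sides and Akr1c18 on neither, and the pair had a Pearson's r of 0.383 across the 54 libraries after each group's mean was subtracted.

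Akr1b3, aldose reductase, and Akr1a1, aldehyde reductase, differed little between groups. Median TPM of Akr1b3 was 58.9 on putative unruptured, 74.3 on putative ruptured, 71.0 on unruptured post-hCG and 60.5 on ruptured post-hCG sides, within a range of 37.0 to 154.9 over all 54 libraries. It was called between sides without hCG (0.49 ± 0.17, FDR = 0.0345, edgeR), with 11 of 14 putative ruptured libraries above the putative unruptured median. That call was lost without putative ruptured library 8, the highest (0.35, FDR = 0.0781), without putative unruptured libraries 5 and 9 (FDR = 0.0675), and in 5 of the other alternatives (FDR = 0.0585 to 0.215). For hCG on the ruptured side the difference was -0.11 ± 0.17 (FDR = 0.609), and it was called with library totals as the scaling (-0.43, FDR = 0.0137). Of the 31-base words in its transcripts, 10.8% also occurred in transcripts of other genes, mostly the pseudogene Gm6644, and 7.41% of its counts were whole numbers (within 0.02), against 72.2% for Akr1c14. Median TPM of Akr1a1 was 315.7, 324.6, 365.9 and 353.3 in the same order of groups, and its log2 fold changes were 0.09 ± 0.13, 0.19 ± 0.08, 0.13 ± 0.11 and 0.23 ± 0.11 between sides without and post-hCG and for hCG on the unruptured and ruptured sides (FDR = 0.670, 0.105, 0.361 and 0.0609, edgeR), and the last 2 of them changed sign with library totals as the scaling. In neither gene did the mean log2(TPM + 1) of neighbouring groups in the order of levels differ by more than 1 pooled SD.

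In that order, putative ruptured sides were highest for Akr1b3, Akr1c14 and Akr1c18, and unruptured post-hCG sides were highest for Akr1b7, Akr1b8, Akr1a1 and Srd5a1. For Akr1a1 the edgeR difference between sides post-hCG had the other sign (0.19 ± 0.08, higher on the ruptured side, FDR = 0.105). Neighbouring groups differed by more than 1 pooled SD at all 3 steps for Akr1c14, at the step from unruptured to ruptured post-hCG for Akr1b7 (2.99 SD) and Srd5a1 (1.12 SD), and at the step from unruptured post-hCG to putative unruptured for Akr1b8 (1.02 SD). At no step did this hold for Akr1b3, Akr1c18 or Akr1a1.

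Against all genes, the counts of called members have to be read beside a high background. Between sides without hCG, 17.8% of 9063 genes were called, 8.84% higher and 8.96% lower on the putative ruptured side, against 4 of the 6 members tested (3 higher and 1 lower). Between sides post-hCG, 21.4% of 8585 genes were called, 10% higher and 11.3% lower, against 4 of 7 members (1 higher and 3 lower). For hCG on the unruptured side, 53.1% of 9320 genes were called, 25.4% higher and 27.7% lower, and on the ruptured side 60.1% of 8531, 29.7% higher and 30.4% lower, against 4 of 7 members (3 higher and 1 lower) on each side. Groups whose TPM ranges did not overlap were found for 5.27% of genes on the unruptured and 7.77% on the ruptured side, and among the members for Akr1c14 alone on both. Since the members were chosen with these contrasts known, nothing is read from the counts. The scaling matters for directions: scaled by library totals, and not by the TMM (trimmed mean of M values) factors of edgeR, the median log2 fold change of all genes was -0.137, -0.246 and -0.325 between sides post-hCG and for hCG on the unruptured and ruptured sides (against 0.011, -0.030 and -0.001), and the share of called genes that were higher moved from 49.7% to 39.3%, from 47.0% to 17.8%, from 47.8% to 27.5% and from 49.4% to 24.5% in the order above.

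Markers of other cells moved with the same contrasts. The 12 theca markers, which mark the steroidogenic and fibroblast-like layer outside the basement membrane, summed to a median of 535 TPM (range 35.1 to 2789) on putative unruptured and 41.3 TPM (5.76 to 573) on putative ruptured sides, and to 350 (78.1 to 1337) and 6.71 TPM (3.2 to 54.5) post-hCG. Of the theca markers tested, 6 of 8 were lower on the ruptured side without hCG and 5 of 6 post-hCG, and Cyp17a1 was at 0 in all 13 ruptured libraries post-hCG. The 9 granulosa markers went the other way without hCG, with 7 of 8 higher on the putative ruptured side. The 6 immune markers summed to medians of 30.8 and 0.63 TPM on putative unruptured and putative ruptured sides and of 12.7 and 0.75 TPM on unruptured and ruptured sides post-hCG, and the 6 smooth muscle and pericyte markers to 33.5, 4.72, 4.18 and 1.29 TPM in the same order. In bulk samples, fewer cells of a type and less RNA per cell cannot be told apart. Pearson's r with the summed theca markers, in the order putative unruptured, putative ruptured, unruptured post-hCG and ruptured post-hCG, was 0.228, 0.343, 0.521 and 0.321 for Akr1b7 and 0.676, 0.568, 0.479 and 0.0918 for Akr1b8. Most of that sum was Col3a1 on putative unruptured and unruptured post-hCG sides (medians of 380.7 and 246.8 TPM). Over the unruptured libraries post-hCG, r was higher with the 5 endothelial markers, at 0.632 for Akr1b7 and 0.597 for Akr1b8. The endothelial sum had a median of 3.43 TPM there, and 1 of the 5 markers had a median above 1 TPM. Of the 5, only Cdh5 was tested for hCG on the unruptured side, and it was called higher. Akr1b7 had r of 0.467 and 0.589 with the 6 cumulus markers on putative unruptured and putative ruptured sides. The part of these markers in the differences between groups was not tested.

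**Figure D3:**
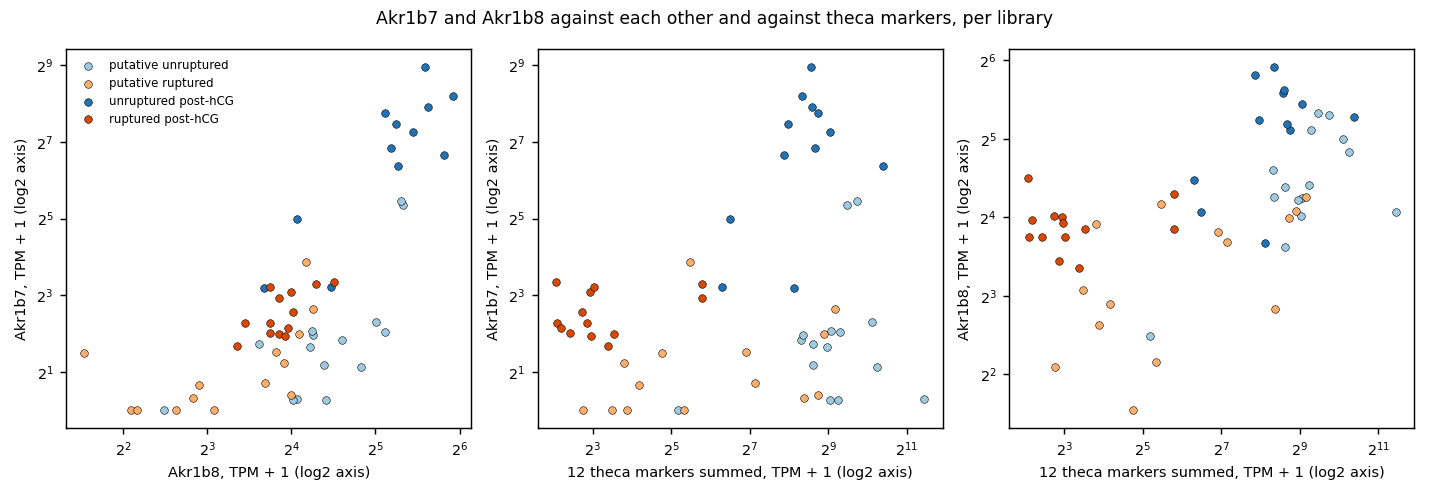
Akr1b7 against Akr1b8 and each against the sum of 12 theca markers, 1 point per library, as TPM + 1 on log2 axes. Akr1b7 is above 8 TPM in all 12 unruptured post-hCG libraries and in 2 of the 15 putative unruptured libraries. These 2 lie within the range of the unruptured post-hCG group. On ruptured sides it is above 8 TPM in putative ruptured library 4 (13.6) and in post-hCG libraries 6, 12 and 13 (8.28, 9.08 and 8.87).

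Across the 54 libraries, with each group's mean subtracted, the genes most like Akr1b7 by Pearson's r of log2(TPM + 1), among 5261 genes at a mean of at least 5 TPM, were Ereg (0.687), Akr1b8 (0.673), Cblb (0.623), Anp32a (0.613) and Adamts4 (0.606). Ereg encodes the EGF-like ligand epiregulin and Adamts4 a matrix protease. Akr1b7 and Akr1b8 were positively related within each group, with r of 0.683, 0.571, 0.851 and 0.656 in the order putative unruptured, putative ruptured, unruptured post-hCG and ruptured post-hCG. The transcripts of Akr1b7 shared 10.1% of their 31-base words with other genes, 41 of 1251 with Akr1b8 and 88 with Akr1b10, so reads from those stretches cannot be told apart. The genes most like Akr1c14 were Mid1ip1 (0.759), Esr2 (0.741), Ddit4l (0.691), St3gal5 (0.688) and Gab2 (0.680), where Esr2 is the estrogen receptor of granulosa cells. Those most like Akr1b3 were Dbi (0.757), Taldo1 (0.754), Psmd4 (0.710), Pebp1 (0.706) and Fdx1 (0.679). Those most like Akr1c18 were Smarca1 (0.586), Hao2 (0.582), Vcan (0.569), Car12 (0.562) and Susd3 (0.547), and those most like Srd5a1 were Trip12 (0.636), Papss1 (0.587), Zfp68 (0.579), Jarid2 (0.567) and Sh3glb2 (0.555). Depth and cell make-up also differed between the libraries of a group, so these values are descriptions.

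The other 14 aldo-keto reductases in the tables, 5 of which were tested in every comparison, were led by Akr1cl. Akr1cl was at a median of 1999 TPM on putative unruptured, 3059 on putative ruptured, 2949 on unruptured post-hCG and 3734 on ruptured post-hCG sides, and made up 79.4% ± 3.4, 80.3% ± 3.6, 80.9% ± 3.9 and 88.6% ± 1.6 (SD) of the summed TPM of the 17 aldo-keto reductases outside the potassium channel subunits. It was higher on the ruptured side post-hCG (0.60 ± 0.11, FDR = 1.43e-04) and post-hCG on the unruptured (0.44 ± 0.14, FDR = 0.0119) and ruptured sides (0.63 ± 0.14, FDR = 2.55e-04, edgeR). Akr1b10, which lies between Akr1b8 and Akr1b7, was lower on the ruptured side post-hCG (-1.33 ± 0.23, FDR = 7.44e-05) and higher post-hCG on the unruptured side (0.50 ± 0.19, FDR = 0.0264) but not called on the ruptured side (-0.42 ± 0.19, FDR = 0.0545), with an interaction of -0.92 ± 0.28 (FDR = 0.0242). Its TPM ranged from 2.59 to 17.2 on unruptured and from 0.83 to 4.65 on ruptured sides post-hCG, and its group medians were 12 to 30 estimated reads. Of the 3554 31-base words in Akr1b10 transcripts, 88 also occurred in Akr1b7 and 94 in Akr1b8, so reads from those stretches cannot be told apart. Over the unruptured libraries post-hCG, Pearson's r between Akr1b10 and Akr1b7 was 0.804. Kcnab3, a potassium channel beta subunit of the same fold, was higher post-hCG on the unruptured (3.28 ± 0.16, FDR = 2.01e-17) and ruptured (3.60 ± 0.16, FDR = 5.83e-19) sides. Between sides without hCG 0 of the 5 were called by edgeR, where Akr1cl (FDR = 0.0589) and Akr1b10 (FDR = 0.0603) were nearest, with 2 at an unadjusted p below 0.05, 1 called by DESeq2 and 1 by limma. Akr1c20 and Akr1c21 were listed at 0 in all 54 libraries.

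Of the other steroid 5-alpha reductases, Srd5a2 was listed at 0 in all 54 libraries, and Srd5a3, which also acts in dolichol synthesis, had group medians of 3.77 to 4.88 TPM and was called in 0 of the 5 comparisons by edgeR, DESeq2 or limma, with an unadjusted p below 0.05 in 0 of them. Of the 17 steroid synthesis genes, 9 of 14 tested were higher post-hCG on each side, and 2 on the unruptured and 4 on the ruptured side were lower, with list medians of 1.29 and 0.78 against -0.03 and 0.00 for all genes. Over all genes, 25.4% were higher and 27.7% lower on the unruptured side, and 29.7% higher and 30.4% lower on the ruptured side. Fdx1, which passes electrons to Cyp11a1, was higher by 3.85 ± 0.21 on the unruptured and 4.07 ± 0.20 on the ruptured side. Cyp11a1, the cholesterol side-chain cleavage enzyme whose product includes isocaproaldehyde, was higher by 3.42 ± 0.39 and 5.48 ± 0.45. Cyp19a1, aromatase, was lower, with log2 fold changes of -5.47 ± 0.61 and -8.29 ± 0.51, and so was Hsd17b1, which forms estradiol, with -3.32 ± 0.54 and -6.27 ± 0.54. Both also belong to the granulosa markers, and post-hCG both stood at medians of 0 to 1.27 TPM.

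Between sides, 5 of 14 steroid synthesis genes were higher and 4 lower on the putative ruptured side, with Hsd17b1 (3.70 ± 0.49) and Cyp19a1 (3.22 ± 0.38) the highest and Star (-2.06 ± 0.47) and Cyp11a1 (-1.70 ± 0.48) the lowest. Post-hCG 3 of 12 were higher and 3 lower, led by Cyb5a (0.75 ± 0.14), Fdxr (0.61 ± 0.10), Por (-0.96 ± 0.13) and Star (-0.95 ± 0.19). Over all genes, 17.8% were called between sides without hCG and 21.4% post-hCG. The interaction was called above 0 for 1 gene, Cyp11a1 (2.07 ± 0.56), whose increase with hCG was larger on the ruptured side. It was called below 0 for 2, Cyb5a (-1.11 ± 0.33) and Por (-0.53 ± 0.17). Por had a smaller increase with hCG on the ruptured side. Cyb5a was called lower post-hCG on the ruptured side and was not called on the unruptured side. The abundant genes of the list, at a mean of at least 100 TPM in a group, also included Hsd3b1 (highest group mean 5679 TPM), which makes progesterone, Scarb1 (617.5), the lipoprotein receptor, and Tspo (129.9).

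Among 15 hydroxysteroid dehydrogenases that convert or inactivate steroids, 14 were in the tables and 5 or 6 were tested. Hsd11b2, which oxidises glucocorticoids, was higher on the putative ruptured side (2.99 ± 0.40, FDR = 3.03e-06) and lower post-hCG on the ruptured side (-3.97 ± 0.40, FDR = 2.57e-10, edgeR). Hsd17b10, a mitochondrial dehydrogenase, was lower post-hCG on the unruptured (-0.92 ± 0.18) and the ruptured side (-1.59 ± 0.16), and lower on the ruptured side post-hCG (-0.47 ± 0.10). Hsd17b12 was higher on the putative ruptured side (0.49 ± 0.13) and post-hCG on the unruptured side (0.33 ± 0.12), with an interaction of -0.59 ± 0.18. Hsd17b4 was lower post-hCG on the unruptured (-0.22 ± 0.09) and ruptured (-0.27 ± 0.09) sides, the former not called by limma (FDR = 0.348).

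Of 23 genes of aldehyde and carbonyl clearance and the polyol pathway, 4 were higher and 6 lower of 13 tested for hCG on the unruptured side, and 3 higher and 6 lower of 12 on the ruptured side. Over all genes, 53.1% and 60.1% were called in these comparisons, and 17.8% and 21.4% between sides without and post-hCG. Nothing is read from the counts of this list. Aldh1a1 and Aldh1a2, which make retinoic acid, fell with hCG, with log2 fold changes of -4.01 ± 0.40 and -3.65 ± 0.42 on the unruptured and -6.34 ± 0.68 and -3.73 ± 0.42 on the ruptured side, whereas Aldh3b1 (1.42 ± 0.19 and 0.95 ± 0.20), Cbr3 (1.05 ± 0.19 on the unruptured side, not tested on the ruptured side) and Aldh9a1 (0.77 ± 0.09 and 0.62 ± 0.09) were higher. Between sides, 1 of 13 was higher (Aldh3b1, 0.67 ± 0.24, FDR = 0.0496, edgeR) and 4 lower on the putative ruptured side, with Aldh1a2 at -2.11 ± 0.37 and Aldh1a1 at -1.93 ± 0.51. The Aldh3b1 call was lost without a count filter (FDR = 0.0713, edgeR) and with limma on log2(TPM + 1) (FDR = 0.194). Post-hCG 4 of 12 were lower and 0 higher on the ruptured side by edgeR (1 higher at an unadjusted p below 0.05 and 0 by DESeq2 or limma), with Aldh1a1 at -4.25 ± 0.35 and Adh1 at -1.17 ± 0.26. Aldh1a1 had the only interaction called in the list (-2.33 ± 0.76, FDR = 0.0416). Aldh1a1 and Adh1 were the genes of this list above a mean of 100 TPM in a group, at 284 and 196 TPM on putative unruptured sides, where the theca and immune markers were also highest (median 535 and 30.8 TPM). Their part in these differences was not tested.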

How the data were processed

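The authors mapped paired-end Smart-Seq2 reads to GRCm38 with HISAT2 and deposited a table of estimated counts per gene, not all whole, and a table of TPM values for 25149 genes. The TPM values in the deposited table summed to 585982 to 678417 per library. The methods name a batch correction with ComBat-seq; whether the deposited counts precede it is not given in the sources used here, and no batch label was given. Library totals were 1497138 to 2834794 counts. Another deposited file, a sample sheet, was not used, and 0 columns were left without a sample.

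The counts were rounded, filtered (filterByExpr, minimum count 10 and total 15), scaled with TMM factors, and fitted in edgeR (4.0.16, quasi-likelihood), with Benjamini-Hochberg FDR below 0.05 across all genes tested in each of 5 comparisons. limma 3.58.1 and DESeq2 1.42.0 were alternatives, with a pseudocount of 1 or 0.1 TPM for limma. The fits were first tested on simulated data. The members and gene lists were chosen with earlier results of these data known. Named genes were the members, plus the 2 per list with the largest log2 fold change each way past the FDR, plus those above a mean of 100 TPM in a group, and the 5 genes most like each of 5 members. Libraries of a group were compared pairwise, and none agreed within sampling noise. Libraries sharing a replicate number across groups did not deviate together (median Pearson's r -0.0477 to 0.0367), and the numbers were not taken as pairs. The numbers run on across gaps in the plate positions, so an equal number need not mark the same follicle. These r values therefore cannot tell whether libraries came from the same follicle.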

Additional observations from a re-analysis of the deposited data

Results flagged for a closer look

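Akr1b7 had an hCG difference on the ruptured side that was smaller than that on the unruptured side by 2.96 log2 units (interaction -2.96 ± 0.95, FDR = 0.0380, edgeR), which a test of the difference itself called. The hCG differences themselves were 4.52 ± 0.66 over 12 against 15 libraries and 1.55 ± 0.44 over 13 against 14. Akr1b7 was above the median without hCG in 12 of 12 and 13 of 13 libraries. The result was not called in 4 of the alternatives, and its cause was not tested.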

How the results depend on the processing

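Of 379 alternative values for the members' log2 fold changes, 337 kept their direction and their side of the threshold, 18 lost a call, 3 gained one and 21 changed sign, and every sign change was in a difference not called. With library totals as the scaling, values turned for Akr1b3 between sides post-hCG (-0.022), for Akr1a1 with hCG on the unruptured (-0.075) and ruptured (-0.093) sides, and in the interaction for Akr1b8 (-0.125) and Akr1a1 (-0.015). With limma on log2(TPM + 1) or log2(TPM + 0.1), they turned between sides post-hCG for Akr1b3 (-0.125 and -0.127) and Akr1a1 (-0.069 and -0.070), and in the interaction for Akr1b8 (-0.073 and -0.014), Akr1a1 (-0.097 and -0.097) and Srd5a1 (-0.355 and -0.417). A minimum mean of 20 counts gave -0.001 for Akr1b8 in the interaction. For hCG on the ruptured side, leaving out libraries gave -0.176 to 0.034 for Akr1b3, the highest without putative ruptured library 8, and -0.279 to 0.057 for Akr1c18, the highest without library 10. In the interaction it gave -0.096 to 0.115 for Srd5a1, the lowest without putative unruptured library 2. Leaving out putative unruptured libraries 5 and 9, chosen after seeing the data, gave 0.169 for Akr1b7 between sides without hCG and -0.138 for Akr1b8 in the interaction. The cause of these turns was not tested.

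limma called 1045 and 1013 genes between sides without hCG, at the 2 pseudocounts, against 1613 in edgeR. Of the members, 2 were called for hCG on the ruptured side with the minimum of 20 counts, since Akr1b7 and Srd5a1 were then not tested, and for the interaction 0 were called without a filter and with limma at 0.1, and 0 to 1 when single libraries, or putative unruptured library 14 with putative ruptured library 1, were left out.

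With the replicate number as a block, Akr1b3 between sides without hCG lost its call (0.42, FDR = 0.141, edgeR), 3 instead of 4 members were called there, and no other call of a member changed. Of the libraries with a shared number, 2 of 14, 2 of 12, 2 of 12 and 1 of 13 correlated best with their own number in the 4 comparisons. An equal number need not mark the same follicle, so neither the block nor these counts test the pairing of sides. Mean levels moved by more than 1 SD in 3 of 28 cases with a pseudocount of 0.1 and in 19 of 28 on the scale of log2(CPM + 1), which is not corrected for length. The 5 genes most like a member shared 2 to 4 with those by Spearman's rho and 0 to 2 without subtraction of group means. Depth limited Srd5a1, Akr1c14 post-hCG and, outside the unruptured post-hCG group, Akr1b7, with medians of 2 to 24 reads.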
